A study of Mus musculus with 6 samples.

Results

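The genes described here are 10 ubiquitin ligase genes of skeletal muscle: the RING-type muscle RING finger (MuRF) genes Trim63, Trim55 and Trim54, the F-box genes Fbxo32 (atrogin-1), Fbxo40, Fbxo31, Fbxo30, Fbxo21 and Fbxo2, and the HECT-type gene Nedd4. They were found by symbol in a count table of 51911 genes, and all 10 passed the filter on low counts, among 16593 genes tested. Fbxo2 was chosen by its higher count in the transgenic muscle of these same libraries, so its difference is a description and carries no test. The other 9 were named for family and function, with earlier results of these data known, and their adjusted p-values are those of a fit over all tested genes.

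The RNA came from the gastrocnemius muscle of male mice. In 3 samples the mice carried the HSA-PGC-1a3 transgene, in which HSA is the usual short name of the human skeletal actin promoter and PGC-1a3 is a variant form of the coactivator PGC-1alpha. The 3 other samples were wild type. Age, the number of transgenic lines and the number of animals behind a library are not given in the sources used here, so the p-values measure only the spread between these libraries, which may be technical. Library totals were 26190221 to 32593108 fragment counts in the transgenic and 25532146 to 40846872 in the wild-type libraries. Ppargc1a, the gene of the transgene, had 73513 to 120862 counts in the transgenic and 1179 to 1809 in the wild-type libraries, so each library matched its label. The myofibre markers (Acta1, Ckm, Tnnt3, Myh4, Myh2, Mb, Actn3 and Ttn) summed to 69897 to 75568 CPM in the transgenic and 152089 to 162735 CPM in the wild-type libraries. CPM is the usual count scaled to a common library size, here after TMM scaling, a correction for differences in library composition.

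A ubiquitin ligase chooses the protein to which ubiquitin is attached, and a chain of ubiquitin sends that protein to the proteasome. RING-type ligases bring the ubiquitin-carrying E2 enzyme to the substrate, F-box proteins are the substrate-binding part of a complex with Skp1, cullin-1 and Rbx1 (the SCF complex), and HECT-type ligases take up the ubiquitin themselves. In wasting muscle, as after denervation, fasting or glucocorticoid excess, Trim63 and Fbxo32 are known as induced transcripts, and FoxO transcription factors are known to drive both.

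The 10 transcripts did not move as a group. Trim54, Fbxo40 and Trim55 fell to between 0.345 and 0.541 of the wild-type level, Fbxo32 was 1.29-fold higher, Nedd4 and Fbxo30 did not pass the test, and Fbxo2 averaged 10.7 CPM in the transgenic muscle against 0.301 CPM in the wild-type muscle. Of the 9 genes other than Fbxo2, 2 were higher and 5 lower in the transgenic muscle at an adjusted p of 0.05 (edgeR quasi-likelihood test, Benjamini-Hochberg), and 2 did not pass. Among all tested genes 50.7% passed, 25.5% higher and 25.2% lower. For 7 of the 9 no transgenic library fell within the CPM range of the other genotype, as for 59.6% of all tested genes. These shares are given as the background of a chosen set, and nothing is read from them. In bulk tissue, fewer cells of a type and less RNA per cell cannot be told apart.

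**Figure D1:**
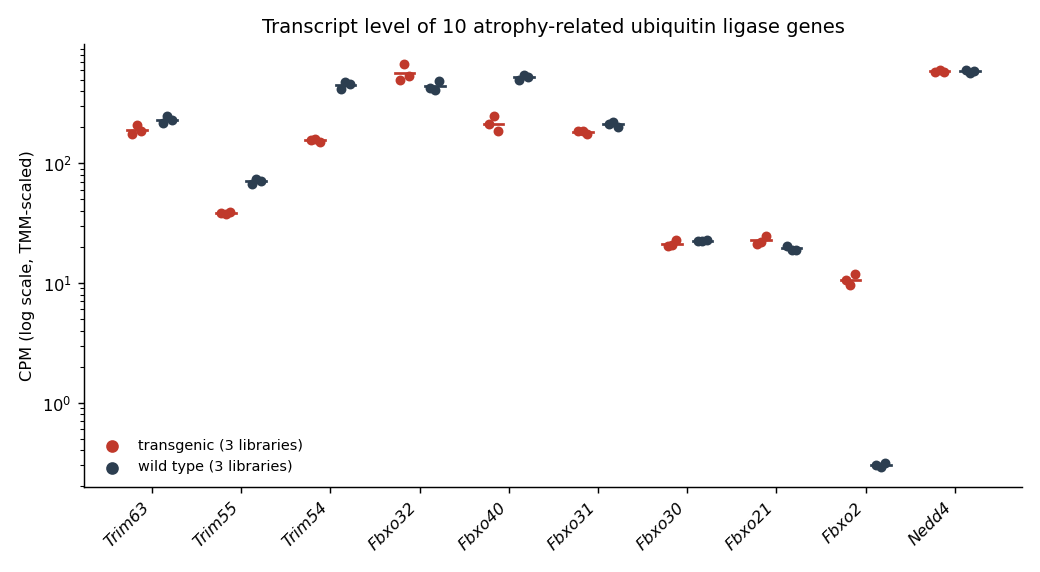
CPM (log axis, TMM-scaled) of the 10 genes in each library. Points are the 3 transgenic (left of each pair) and 3 wild-type libraries, and bars are means. Trim54, Trim55 and Fbxo40 lay lower in every transgenic library, Fbxo2 lay at 9.69 to 11.9 CPM in the transgenic and 0.288 to 0.312 CPM in the wild-type libraries, and Nedd4 overlapped.

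The direction of Trim63, Fbxo31 and Fbxo30 turned with the scaling, while Fbxo32 and Fbxo21 stayed above 0. Nedd4 lay at 0.00 with TMM and at 0.40 under plain library totals. With plain library totals in place of TMM factors, the median log2 fold change of all tested genes was 0.38, against -0.02 with TMM. The share of tested genes that passed was then 61.0%, with 52.3% higher and 8.73% lower. Under that setting 5 of the 9 genes passed as higher (Fbxo32, Fbxo31, Fbxo30, Fbxo21 and Nedd4) and 3 as lower (Trim55, Trim54 and Fbxo40). Trim55, Trim54 and Fbxo40 kept their direction and their call. The log2 fold changes below use TMM and are therefore relative to the bulk of the transcriptome.

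**Figure D2:**
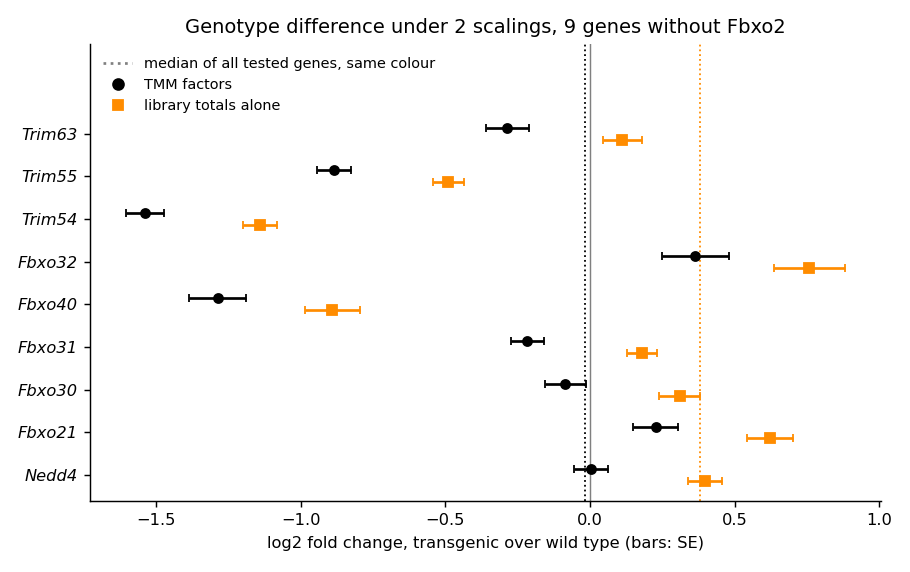
Log2 fold change (transgenic over wild type, bars are SE) of 9 genes with TMM factors (circles) and under plain library totals (squares). Dotted lines mark the median of all tested genes, -0.02 and 0.38. Trim54, Fbxo40 and Trim55 lay below 0 under both scalings, while Trim63, Fbxo31 and Fbxo30 lay below 0 with TMM and above 0 with library totals.

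Among the MuRF genes, which encode RING-finger proteins of the sarcomere, the differences were graded. Trim54 encodes MuRF3, which binds microtubules and the Z-disc. Trim54 (chromosome 5, 31116712 to 31137630, plus strand, GRCm38) had 155, 160 and 150 CPM in the transgenic libraries 1 to 3, against 414, 478 and 458 CPM in the wild-type libraries 1 to 3. Every transgenic library lay below every wild-type library, and the spread within a genotype was small beside that gap. The mean was 155 ± 4.62 CPM in the transgenic and 450 ± 32.9 CPM in those of wild type (SD, n = 3 each), a log2 fold change of -1.54 (SE 0.07, edgeR adjusted p = 4.45e-08). Trim54 shares 382 exonic bases with Gm15469 on the opposite strand, and counting ignored strand. Gm15469 had 53.8 to 57.4 CPM in the transgenic and 151 to 176 CPM in the wild-type libraries, so the counts of the pair cannot be told apart at those bases.

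Trim55 encodes MuRF2, a partner of titin at the M-band. Trim55 (chromosome 3, 19644474 to 19692421, plus strand) had 38.4, 37.9 and 39.3 CPM in the transgenic libraries, against 67.4, 74.6 and 71.7 CPM in the wild-type libraries. The genotypes did not overlap, and the log2 fold change was -0.89 (SE 0.06, edgeR adjusted p = 6.01e-07). Trim63 encodes MuRF1, which marks myosin and other thick-filament proteins for breakdown. Trim63 (chromosome 4, 134315120 to 134329629, plus strand) had 175, 210 and 185 CPM in the transgenic libraries, against 219, 248 and 228 CPM in the wild-type libraries. Its libraries did not overlap between genotypes, but transgenic replicate 2 lay close to wild-type replicate 1. The log2 fold change was -0.29 (SE 0.07, edgeR adjusted p = 0.00748) with TMM and 0.11 (SE 0.07, adjusted p = 0.183) under plain library totals.

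The ratio between genes of the same library does not depend on the scaling. Per kilobase of exon, Trim63 made up 33.5%, 37.0% and 35.3% of the summed MuRF transcripts in the transgenic libraries, against 19.7%, 19.5% and 18.8% in the wild-type libraries. Trim54 made up 58.7%, 55.8% and 56.7% in the transgenic and 73.8%, 74.3% and 74.8% in the wild-type libraries. Trim55 held 7.16% to 8.01% in the transgenic and 6.26% to 6.49% in the wild-type libraries. Trim54 thus remained the most abundant MuRF transcript per length in all 6 libraries, with a smaller lead in the transgenic muscle. These shares rest on the same comparison and carry no test.

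Promoter sequences were at hand for 8 of the 10 genes, as 10 RefSeq windows of 300 bases (250 before and 50 after a start, GRCm38.p6). Fbxo32 and Trim55 had none. The windows were searched on both strands for GTAAACA (the core of the FoxO site), AAGGTCA (a site of oestrogen-related receptors), CANNTG (the E-box of myogenic factors) and its CAGCTG form, which is counted among the E-boxes too. The window of Trim63 held the FoxO letters, on its reverse strand 194 bases before the start, and none of the other 9 did. Over 32817 windows of all genes, 3.65% held the FoxO letters, 4.72% those of the oestrogen-related receptors, 16.3% the CAGCTG form of the E-box and 72.3% any E-box. The receptor site was in none of the 10. The bases before the start of Trim63 and Trim54, whose transcripts fell to unlike extents with TMM, are shown with the FoxO letters (Trim63) and each E-box in capitals. The Trim63 stretch is chr4:134314870-134315119 and the Trim54 stretch chr5:31116362-31116611, both on the plus strand.
Trim63: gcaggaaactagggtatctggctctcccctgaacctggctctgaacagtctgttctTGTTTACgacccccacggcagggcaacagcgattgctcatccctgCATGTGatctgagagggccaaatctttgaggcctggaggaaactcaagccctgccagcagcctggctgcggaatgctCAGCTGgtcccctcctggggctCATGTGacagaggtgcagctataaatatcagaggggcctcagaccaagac
Trim54: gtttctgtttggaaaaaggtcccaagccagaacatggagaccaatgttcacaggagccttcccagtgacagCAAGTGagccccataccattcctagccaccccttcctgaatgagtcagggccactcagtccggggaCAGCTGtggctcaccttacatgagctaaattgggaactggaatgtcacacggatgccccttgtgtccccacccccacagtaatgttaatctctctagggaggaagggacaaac
The Trim63 stretch held 3 E-boxes and the Trim54 stretch 2, with a single CAGCTG in each. A match describes the letters and shows neither binding nor a cause.

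**Figure D3:**
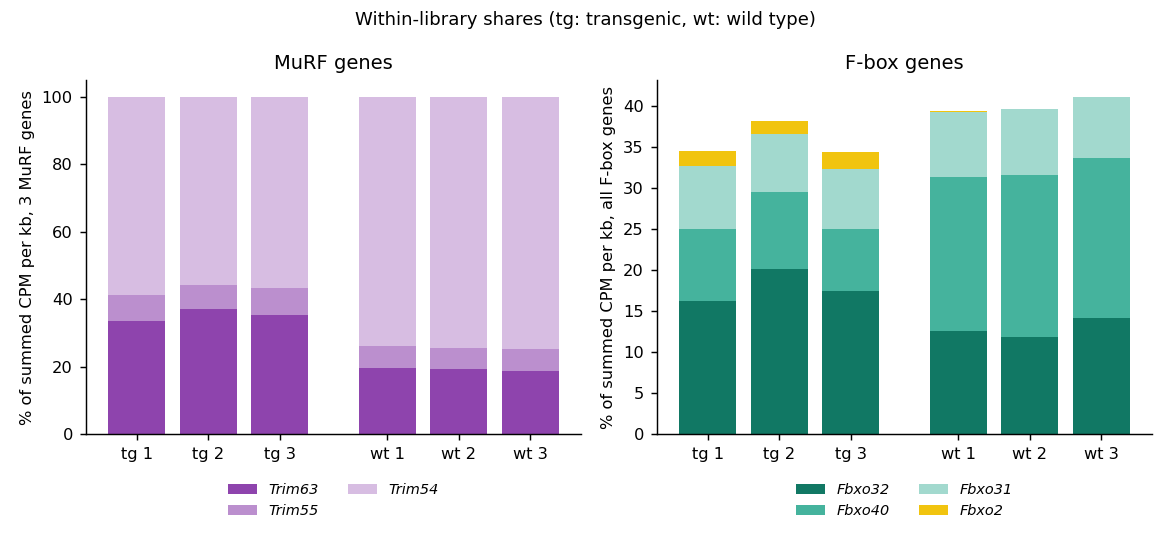
Within-library shares of summed CPM per kilobase of exon, for the 3 MuRF genes (left) and for Fbxo32, Fbxo40, Fbxo31 and Fbxo2 as a percentage of all 80 F-box genes (right). Trim63 held 33.5% to 37.0% of the MuRF sum in the transgenic and 18.8% to 19.7% in the wild-type libraries, and Fbxo40 held 7.60% to 9.40% of the F-box sum in the transgenic and 18.7% to 19.7% in the wild-type libraries.

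Fbxo32 encodes atrogin-1, the F-box protein known to bind MyoD and the translation factor eIF3f. Fbxo32 (chromosome 15, 58175879 to 58214932, minus strand) had 497, 674 and 537 CPM in the transgenic libraries, against 428, 413 and 487 CPM in the wild-type libraries. The lowest transgenic library lay just above the highest wild-type library, and transgenic replicate 2 stood highest. The mean was 569 ± 92.9 CPM in the transgenic and 442 ± 39.1 CPM in those of wild type (SD, n = 3 each). The log2 fold change was 0.36 (SE 0.12, edgeR adjusted p = 0.0273). The call ended without wild-type replicate 1 (0.33) and without wild-type replicate 2 (0.31), with an adjusted p of up to 0.114. With library totals alone it was 0.76 (adjusted p = 8.32e-04). Fbxo32 and Trim63, usually named together, went to opposite sides of 0 with TMM. The ratio of Fbxo32 to Trim63 counts was 2.83, 3.22 and 2.90 in the transgenic libraries, against 1.95, 1.66 and 2.13 in the wild-type libraries, with no overlap. Fbxo32 shares 186 exonic bases with Gm15943 on the opposite strand, which had 52.0 to 73.6 CPM in the transgenic and 42.8 to 51.1 CPM in the wild-type libraries.

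Fbxo40, a muscle-restricted F-box gene whose protein targets the insulin receptor substrate IRS1, had the largest decrease among the F-box genes listed here. Fbxo40 (chromosome 16, 36963460 to 36990467, minus strand) had 211, 248 and 185 CPM in the transgenic libraries, against 499, 543 and 529 CPM in the wild-type libraries. Every wild-type library held more than the highest transgenic library. The mean was 215 ± 31.9 CPM in the transgenic and 524 ± 22.3 CPM in those of wild type (SD, n = 3 each), a log2 fold change of -1.29 (SE 0.10, edgeR adjusted p = 3.92e-06). The 250 bases before the Fbxo40 start (chr16:36990468-36990717, minus strand, GRCm38.p6, RefSeq), shown as the counterpart to the MuRF stretches, held 4 E-boxes (capitals), 2 of them CAGCTG.
Fbxo40: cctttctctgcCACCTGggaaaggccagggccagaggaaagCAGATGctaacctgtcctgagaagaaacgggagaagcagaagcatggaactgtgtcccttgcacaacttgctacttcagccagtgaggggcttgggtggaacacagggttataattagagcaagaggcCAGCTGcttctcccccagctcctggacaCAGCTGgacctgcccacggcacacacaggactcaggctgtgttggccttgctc

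Fbxo40 and Fbxo32 exchanged places in the family. Per kilobase, Fbxo40 ranked second of 80 F-box genes in the transgenic and first in the wild-type muscle, and Fbxo32 ranked first in the transgenic and second in the wild-type muscle. Fbxo32 held 16.3%, 20.2% and 17.5% of the summed F-box transcripts in the transgenic libraries, against 12.7%, 11.9% and 14.2% in the wild-type libraries. Fbxo40 held 8.75%, 9.40% and 7.60% in the transgenic and 18.7%, 19.7% and 19.5% in the wild-type libraries. The ratio of Fbxo32 to Fbxo40 counts was 2.35 to 2.91 in the transgenic and 0.760 to 0.921 in the wild-type libraries, so the majority member of the pair differed between the genotypes in every library.

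The other F-box genes of denervated muscle differed little. Fbxo31 (chromosome 8, 121549440 to 121578806, minus strand), whose protein is known for the turnover of cyclin D1, had 185, 185 and 175 CPM in the transgenic libraries, against 212, 221 and 200 CPM in the wild-type libraries. Its log2 fold change was -0.22 (SE 0.06, edgeR adjusted p = 0.00777) with TMM and 0.18 (adjusted p = 0.00990) under plain library totals, so its direction is set by the scaling. Fbxo21 (chromosome 5, 117976730 to 118010201, plus strand), known as SMART and induced by FoxO in wasting mouse muscle, had 21.3, 22.0 and 24.7 CPM in the transgenic libraries, against 20.3, 19.0 and 18.9 CPM in the wild-type libraries. The genotypes did not overlap, by a narrow margin, and the log2 fold change was 0.23 (SE 0.08, edgeR adjusted p = 0.0318). This call ended with the DESeq2 Wald test (0.23) and when transgenic replicate 3 (0.17) or either of the wild-type replicates 2 and 3 (0.20 each) was left out. Fbxo30 (chromosome 10, 11281330 to 11298052, plus strand), known as MUSA1 and held in check by BMP signalling in mouse muscle, had 20.4, 20.6 and 22.9 CPM in the transgenic libraries, against 22.3, 22.5 and 23.0 CPM in the wild-type libraries. The genotypes overlapped, and no difference was detected with TMM (log2 fold change -0.09, SE 0.07, edgeR adjusted p = 0.345), while under plain library totals it was 0.31 (adjusted p = 0.00281).

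Fbxo2 encodes an F-box protein that binds the sugar chains of glycoproteins, and it is known mainly from neurons. It had 319, 291 and 443 counts in the transgenic libraries, against 7, 10 and 7 counts in the wild-type libraries, which is 10.5, 9.69 and 11.9 CPM in the transgenic and 0.303, 0.288 and 0.312 CPM in the wild-type libraries. Every transgenic library lay far above the wild-type libraries, and neither genotype held a library apart from its group. The ratio of summed counts was 36.0 (exact 95% interval 24.1 to 56.5, counting error only), and the fitted log2 fold change was 5.14 (SE 0.18). Per kilobase, Fbxo2 ranked 16th of 80 F-box genes in the transgenic and 51st in the wild-type muscle. It held 1.57% to 2.09% of the summed F-box transcripts in the transgenic and 0.0448% to 0.0493% in the wild-type libraries. Even so its level in the transgenic muscle, 8.29 ± 0.854 CPM per kilobase, was a small fraction of the 81.6 ± 13.3 CPM per kilobase of Fbxo32 there (SD, n = 3).

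Neuron markers were low in all libraries. Of 8 neuron markers, 2 passed the filter on low counts and 0 passed the test with TMM (1 was higher under plain library totals), and Snap25, Syt1, Nefm and Nefl had at most 3 counts in every library. The neuron markers summed to 4.36 to 5.85 CPM in the transgenic and 4.55 to 5.85 CPM in the wild-type libraries. Of 7 Schwann cell markers 0 passed the test (edgeR, adjusted p of 0.05), and they summed to 75.2 to 294 CPM in the transgenic and 117 to 239 CPM in the wild-type libraries. Over all tested genes 50.7% passed with TMM. Uchl1, also known mainly from neurons but not among these markers, was higher (log2 fold change 2.02, SE 0.12, edgeR adjusted p = 2.46e-07).

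The gene next to Fbxo2 also rose. Fbxo2 (chromosome 4, 148160621 to 148166424, plus strand, GRCm38) and Fbxo44 (148152800 to 148160482, minus strand) point away from each other, with 138 bases between their outermost annotated ends and no shared exonic base. Fbxo44, a relative of Fbxo2, had 15.8, 19.2 and 18.5 CPM in the transgenic libraries, against 5.46, 6.65 and 6.59 CPM in the wild-type libraries. Its log2 fold change was 1.51 (SE 0.11, edgeR adjusted p = 1.18e-06), and 1.91 under plain library totals. Fbxo6, the next gene and another relative, had 29.3 to 31.9 CPM in the transgenic and 31.9 to 33.7 CPM in the wild-type libraries. Fbxo6 did not pass with TMM (-0.11, SE 0.06, edgeR adjusted p = 0.174), and passed as higher under plain library totals (0.29, adjusted p = 0.00269). Mad2l2, beyond it, had a log2 fold change of 0.10 (SE 0.10, edgeR adjusted p = 0.412), and 0.50 (adjusted p = 0.00115) under plain library totals. Within the locus, the ratio of Fbxo2 to Fbxo44 counts was 0.662, 0.504 and 0.641 in the transgenic libraries, against 0.0556, 0.0433 and 0.0473 in the wild-type libraries. Both genes were thus higher, and Fbxo2 by more.

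**Figure D4:**
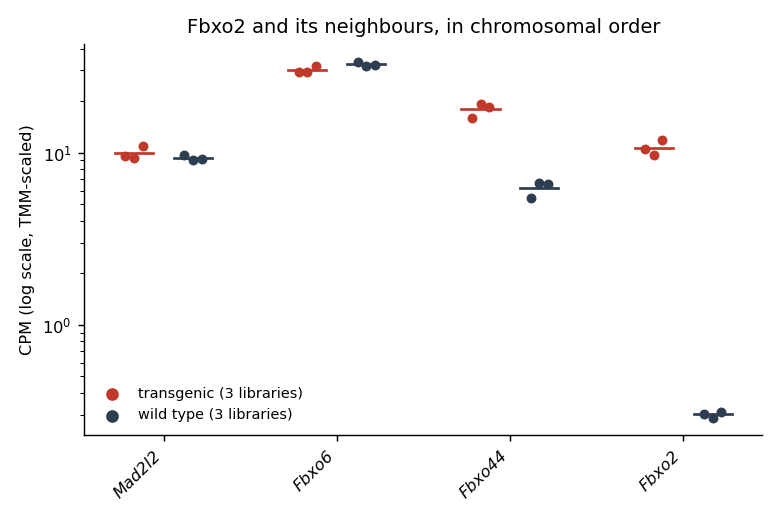
CPM (log axis, TMM-scaled) of Mad2l2, Fbxo6, Fbxo44 and Fbxo2 in chromosomal order, not to distance. Points are the 3 transgenic (left) and 3 wild-type libraries, and bars are means. Fbxo44 lay at 15.8 to 19.2 CPM in the transgenic and 5.46 to 6.65 CPM in the wild-type libraries, with Fbxo2 further apart, while Mad2l2 overlapped. Fbxo6 and Mad2l2 did not pass the test with TMM and passed as higher under plain library totals (0.29 and 0.50).

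The 138 bases between the annotated ends (chr4:148160483-148160620, plus strand, GRCm38.p6, cut from the RefSeq window of Fbxo2) are shown because both genes start at its edges in the GENCODE annotation. The RefSeq windows place the starts of both genes inside the annotated genes, not at these edges. CG pairs are in capitals.
Fbxo44-Fbxo2: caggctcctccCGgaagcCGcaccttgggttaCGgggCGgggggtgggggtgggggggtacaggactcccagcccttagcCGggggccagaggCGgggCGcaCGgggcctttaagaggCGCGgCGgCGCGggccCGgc
G and C made up 77.5% of these bases, and none of the 4 motifs was found in them. The RefSeq windows of Fbxo44, which were not among those searched above, did hold matches. Window 2 of Fbxo44 held the letters of the oestrogen-related receptors, at -128 from its start, as did 4.72% of the windows of all genes. Window 3 held 1 E-box, at -156 from its start, and window 1 held none of the 4 motifs. In the full windows of 300 bases, G and C made up 69.0% for Fbxo2, 63.7% for Fbxo21, 69.7% for Fbxo31, 79.7% for Fbxo30 and 73.0% for the first Nedd4 start, against a median of 52.7% over all windows. Those 5 windows held no E-box. Trim63 (57.0%), Trim54 (54.0%) and both windows of Fbxo40 (56.0% and 51.3%), genes known for their restriction to striated muscle, each held at least 2 E-boxes, as did the second Nedd4 start (46.7%), with 4. Any E-box was in 72.3% of the windows of all genes, and the share with 2 or more was not counted. Fbxo32 and Trim55 had no window, so nothing is read from this contrast.

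The F-box genes listed as relatives of Fbxo2 differed among themselves. Of 4 tested, Fbxo44 and Fbxo27 rose and Fbxo17 fell, while Fbxo6 did not pass. Fbxo27 had 2.83, 2.23 and 3.54 CPM in the transgenic libraries, against 0.866, 0.489 and 0.579 CPM in the wild-type libraries, a log2 fold change of 2.18 (SE 0.27, edgeR adjusted p = 6.19e-05). Fbxo17 had a log2 fold change of -0.65 (SE 0.13, edgeR adjusted p = 0.00163), which did not pass under plain library totals (-0.26). With TMM 75.0% of these 4 passed, beside 50.7% of all tested genes (25.5% higher and 25.2% lower). The median of the 4 was 0.70 with TMM, beside -0.02 over all tested genes. With 4 genes, nothing is read from these shares.

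Over the whole F-box family without the genes above, 51 of 74 genes were tested. Of these, 15 were higher and 10 lower (median log2 fold change 0.10), and under plain library totals 40 were higher and 0 lower (median 0.50). With TMM 49.0% of this list passed, beside 50.7% of all tested genes (25.5% higher and 25.2% lower). Under plain library totals 61.0% of all tested genes passed, 52.3% higher and 8.73% lower. After Fbxo44 the smallest p-values among higher genes belonged to Fbxo38 (0.74, SE 0.06), Fbxl6 (1.03, SE 0.09) and the CpG-binding gene Fbxl19 (1.38, SE 0.12). The decrease of Fbxo40 by 1.29 was larger than any of the 10 lower calls in that family, of which Fbxo17 at -0.65 had the largest size. Of 41 tested TRIM genes other than the MuRF genes, 12 were higher and 7 lower (median -0.01), a share of 46.3%. The 7 became 4 without transgenic replicate 1, without wild-type replicate 3, or with no filter on low counts, and under plain library totals 25 were higher and 2 lower. Trim24, a nuclear receptor cofactor, fell (-1.42, SE 0.10, edgeR adjusted p = 3.36e-06), and Trim41 (0.82, SE 0.06) and Trim7 (0.78, SE 0.07), a partner of glycogenin, rose. Trim41 and Trim7 share exonic bases with other genes.

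**Figure D5:**
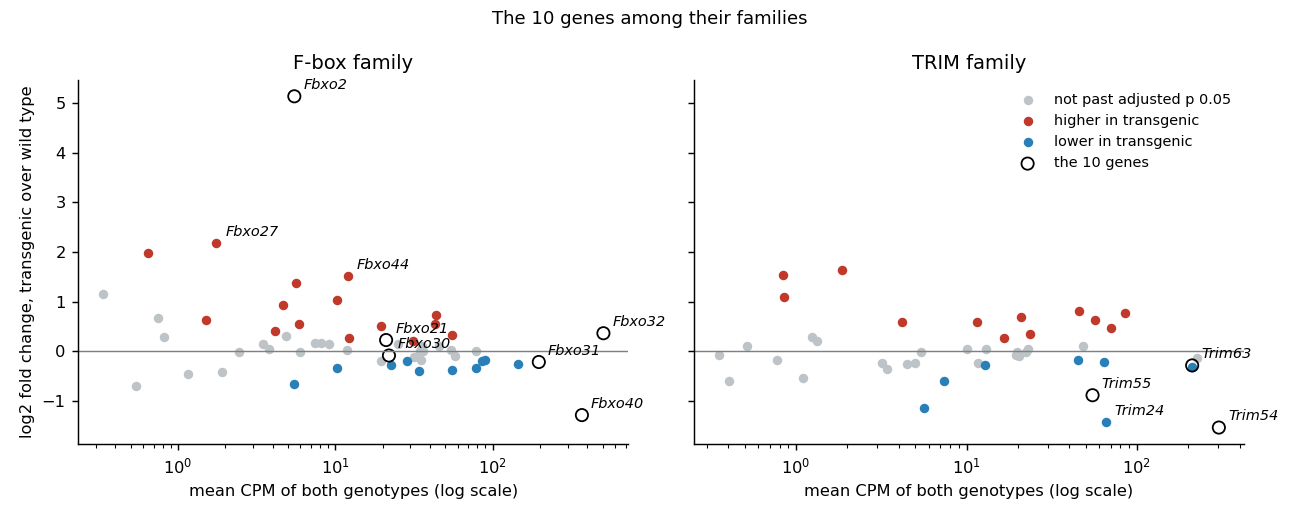
Log2 fold change (transgenic over wild type, TMM) against mean CPM (log axis) for tested F-box genes (left) and TRIM genes (right). Colours mark genes past an adjusted p of 0.05, and open circles mark the genes described here. Fbxo2 lay highest at 5.14 and Trim54 lowest at -1.54, and the more abundant F-box genes Fbxo32, Fbxo40 and Fbxo31 spread between 0.36 and -1.29.

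Nedd4 (chromosome 9, 72662346 to 72749852, plus strand), a HECT ligase with roles in receptor turnover and muscle growth, had 578, 604 and 583 CPM in the transgenic libraries, against 603, 567 and 589 CPM in the wild-type libraries. The genotypes overlapped, and the log2 fold change was 0.00 (SE 0.06, edgeR adjusted p = 0.964) with TMM, or 0.40 (adjusted p = 1.51e-04), close to the median gene, under plain library totals. Of 9 tested genes of the NEDD4 family and its adaptors, 5 fell and 1 rose (median -0.48), and under plain library totals 2 were lower and 3 higher (median -0.08). The share that passed with TMM was 66.7%, beside 50.7% of all tested genes. Wwp1 had 205, 210 and 211 CPM in the transgenic libraries, against 458, 453 and 456 CPM in the wild-type libraries (log2 fold change -1.13, SE 0.05, edgeR adjusted p = 7.24e-08). Ndfip2, an adaptor that activates NEDD4-type ligases, fell by 0.62 (SE 0.07) on the log2 scale, and Wwp1 and Ndfip2 kept their calls under plain library totals. Smurf2 (-0.52), Itch (-0.48) and Smurf1 (-0.48) passed with TMM and not under plain library totals. Wwp2 rose (0.66, SE 0.07).

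Per kilobase of exon, the order of the 10 genes differed between the genotypes. In transgenic muscle Trim54 stood first at 108 ± 3.22 CPM per kilobase, followed by Fbxo32 at 81.6 ± 13.3 and Trim63 at 66.9 ± 6.18 (SD, n = 3). Nedd4 (53.6), Fbxo40 (38.9), Fbxo31 (33.2), Trim55 (14.5), Fbxo2 (8.29), Fbxo30 (4.09) and Fbxo21 (4.09) came next. In wild-type muscle Trim54 stood at 313 ± 22.9 CPM per kilobase, followed by Fbxo40 at 94.9 ± 4.05, Trim63 at 81.5 ± 5.20, Fbxo32 at 63.4 ± 5.60, Nedd4 at 53.5 and Fbxo31 at 38.5. Trim55 (26.8), Fbxo30 (4.35), Fbxo21 (3.50) and Fbxo2 (0.234) closed the wild-type order. Neighbours overlapped between libraries in the transgenic order for Fbxo32 and Trim63, Fbxo40 and Fbxo31, and Fbxo30 and Fbxo21, and for no pair of neighbours in the wild-type order. The spread within a genotype was widest for Fbxo32, with a coefficient of variation of 16.3% in the transgenic and 8.83% in the wild-type libraries, and 14.9% for Fbxo40 in the transgenic libraries. Nedd4 varied by 2.32% in the transgenic libraries.

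Parts of the machinery the F-box proteins plug into were higher. Of 20 genes of the SCF core and of cullin neddylation, 11 rose and 3 fell (median 0.25), with 18 higher and 1 lower under plain library totals (median 0.65). The calls with TMM made up 70.0% of the list, beside 50.7% of all tested genes. Among higher genes the smallest p-values belonged to Cops6 (0.68, SE 0.05), Cops3 (0.54, SE 0.06), Cops2 (0.44, SE 0.06) and Cops7a (0.42, SE 0.06). They encode parts of the COP9 signalosome, the complex that removes Nedd8 from cullins. Not all genes of that complex rose. Cops5 was lower with TMM (-0.18, SE 0.06, edgeR adjusted p = 0.0266) and higher under plain library totals (0.22), and some others did not pass with TMM. Dcun1d1, which promotes cullin neddylation, fell (-0.85, SE 0.10, edgeR adjusted p = 6.56e-05). Genes of ubiquitin and its E1 and E2 enzymes lay on the other side with TMM. Of 24 tested, 13 fell and 2 rose (median -0.21), and the 2 became 1 without any of the transgenic libraries or without wild-type replicates 1 or 2, each left out singly. In this list 62.5% passed with TMM. The direction of this list turned under plain library totals, with 13 higher and 4 lower calls (median 0.19, below the 0.38 of all genes). Ube2r2, an E2 of SCF complexes, fell by 0.98 (SE 0.05) and Ube2d1 by 0.76 (SE 0.07), both also called lower under plain library totals.

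A list of 19 other genes studied in muscle wasting held ligases and the ubiquitin-binding gene Zfand5, which is not itself a ligase. Of these, 9 fell and 4 rose (median -0.20), and under plain library totals 1 was lower and 10 were higher (median 0.20). Here 68.4% passed with TMM, beside 50.7% of all tested genes. Zfand5, known as induced in atrophy, fell (-0.85, SE 0.06, edgeR adjusted p = 5.35e-07) and kept its call under plain library totals. Stub1, a chaperone-linked ligase that shares 1084 exonic bases with Jmjd8, rose (0.56, SE 0.05), as did Huwe1 (0.40, SE 0.06).

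Genes that are known to act upstream of the atrophy ligases, listed together with targets of those pathways such as Fkbp5, also split. Of 28 tested, 7 rose and 13 fell (median -0.19), and under plain library totals 16 were higher and 6 lower (median 0.20). With TMM 71.4% passed, beside 50.7% of all tested genes (25.5% higher and 25.2% lower). Foxo3 rose (0.48, SE 0.08, edgeR adjusted p = 3.20e-04), while Foxo4 fell (-1.06, SE 0.05, edgeR adjusted p = 1.04e-07). Foxo1 was at 0.19 (edgeR adjusted p = 0.0595), and passed under plain library totals (0.58), with either other filter on low counts, and without transgenic replicate 2 (0.28, adjusted p = 0.0126). The denervation factor Myog rose to 10.8 ± 3.37 CPM in the transgenic muscle, against 3.46 ± 0.478 CPM in the wild-type muscle (SD, n = 3 each), a log2 fold change of 1.66 (SE 0.26). Dach2, a repressor of Myog, fell to 0.423 ± 0.243 CPM in the transgenic muscle, against 7.03 ± 1.16 CPM in the wild-type muscle. The glucocorticoid target Fkbp5 fell (-1.38, SE 0.13), as did the stress factor Atf4 (-0.62, SE 0.08).

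Of 24 transcripts whose proteins are known substrates of these ligases, 13 fell and 3 rose (median -0.33), and under plain library totals 6 were lower and 7 higher (median 0.07). The share past the test with TMM was 66.7%, beside 50.7% of all tested genes. Ckm (-1.27, SE 0.06), Myl1 (-1.17, SE 0.08), Acta1 (-0.97, SE 0.07) and Myh4 (-1.30, SE 0.09), which encode contractile proteins or, for Ckm, an energy-buffering enzyme, fell under both scalings. The genes that rose were Eid1 (0.58), Pax7 (0.47) and Myh1 (1.07), of which only Eid1 kept its call in each leave-one-out fit. Without transgenic replicate 3 or without wild-type replicate 1 the count of higher genes was 1. These are transcript levels and say nothing of protein turnover.

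Across the 6 libraries genes most like Fbxo32 in log2 CPM included 4932438A13Rik, Zbtb20, Zfp867 and Scap, with Pearson r of 0.978 to 0.996. Those most like Trim63 were Bicd2, Smco4, P2ry1, Ceacam1 and the transcription factor gene Klf15, with r of 0.991 to 0.994. Klf15 had 18.3, 26.3 and 19.9 CPM in the transgenic libraries, against 31.8, 43.2 and 32.1 CPM in the wild-type libraries. Its libraries stood in the same order as those of Trim63, with replicate 2 highest in each genotype. With 6 points that share a genotype split and library scaling, these coefficients are descriptions.

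Among the markers of other cell types, those of endothelium and of smooth muscle and pericytes fell as whole lists with TMM. Of 6 endothelial markers 6 fell (0 under plain library totals), with a summed level of 298 to 317 CPM in the transgenic and 373 to 397 CPM in the wild-type libraries. Of 6 smooth muscle and pericyte markers 6 fell (4 under plain library totals), with 599 to 657 CPM in the transgenic and 945 to 1028 CPM in the wild-type libraries. Of 8 myofibre markers 6 fell and 0 rose, and under plain library totals 5 were lower and 1 higher. Myh1, a myosin gene outside that list, rose with TMM, a call not kept in each leave-one-out fit. The myofibre list thus does not speak for all myofibre transcripts. Fibroblast markers fell in 2 of 6 cases (921 to 1079 CPM in transgenic, 1068 to 1285 CPM in the wild-type libraries), a direction that turned under plain library totals (2 higher and 0 lower). With either scaling 1 of 6 macrophage markers rose (77.1 to 89.1 CPM in transgenic, 58.6 to 92.1 CPM in the wild-type libraries). Satellite cell markers rose in 2 of 5 cases with TMM and in 5 under plain library totals (53.4 to 56.1 CPM in transgenic, 43.6 to 56.6 CPM in the wild-type libraries). Adipocyte markers passed in 0 of 5 cases and varied widely (7.03 to 36.1 CPM in transgenic, 14.3 to 138 CPM in the wild-type libraries). Over all tested genes 50.7% passed with TMM and 61.0% under plain library totals. The part of the marker shifts in the differences of the ligase genes was not tested.

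The authors' deposited table listed 4 of the 10 genes among its 3614, with log2 fold changes of 4.42 for Fbxo2, -1.53 for Trim54, -1.27 for Fbxo40 and -0.87 for Trim55. The authors' deposited table also listed Fbxo44 at 1.47, Fbxo27 at 1.79, Fbxo17 at -0.611 and Wwp1 at -1.11. The smallest absolute log2 fold change in the authors' deposited table was 0.585, a size that the differences of Fbxo32, Trim63, Fbxo31, Fbxo21, Fbxo30 and Nedd4 did not reach here with TMM.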

How the data were processed

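RNA was extracted with Trizol from frozen, pulverised muscle and sequenced from Illumina libraries, per the labels' protocols. The submitters' processing notes name STAR 2.5.0a, featureCounts 2.0.0, DESeq2 (no version) and the build GRCm38.p6. Gene counts in the deposited table are raw and of fragments, made without strand, with a fragment counted for each gene it overlaps, per the file headers. The authors' deposited table of comparisons gives log2 fold changes with p-values, for genes past a p and fold limit.

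Names, positions and exon lengths came from GENCODE M21 (GRCm38), which matched 51718 of 51911 IDs. Counts were filtered with filterByExpr, scaled with TMM and tested in edgeR 4.0.16 (R 4.3.3, robust quasi-likelihood F test, no term besides genotype). P-values were adjusted by Benjamini-Hochberg over all 16593 tested genes at 0.05. A SE is the absolute log2 fold change over the square root of F. Correlations used log2 CPM with a prior count of 2. A count of 3 equals 0.0804 to 0.134 CPM. Motifs were searched in RefSeq promoter windows. Members, 11 gene lists (genes described here counted apart) and 9 marker lists were chosen with earlier results of these data known. Named beyond the 10 are up to 4 genes per list and direction by smallest p, any gene of short lists, Foxo1, Foxo3, Myog, Ppargc1a, neighbours of Fbxo2 and the 5 genes most like Fbxo32 or Trim63. Some genes that this rule would name are not reported here, though the list counts include them.

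Alternatives were DESeq2 1.42.0, library totals, upper-quartile factors, 2 filters on low counts, limma-voom (limma 3.58.1), leaving out each library, and blocking on replicate number. On simulated counts for 16344 genes edgeR found 64.2% of the genes given a 1.5-fold change, 80.6% of those given 2-fold and 100% of those given 4-fold. Of its 172 calls 9 were false, in a simulation with a far smaller share of changed genes than called in the data. No library was a duplicate, since libraries of a genotype differed beyond sampling noise, by 10.8 to 26.1 chi-square units per degree of freedom.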

Additional observations from a re-analysis of the deposited data

How the results depend on the processing

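With library totals alone, Trim63 (0.11), Fbxo30 (0.31) and Fbxo31 (0.18) changed sign, Nedd4 passed as higher (0.40) and Fbxo2 was 5.54, since that setting moves the median gene by 0.40. The genes called were then 8676 higher and 1448 lower, against 4230 and 4189 with TMM, and the genes of the 11 lists together 152 higher and 24 lower. The Nedd4 log2 fold change, at 0.00, fell on the other side of 0 with upper-quartile factors (-0.000112) and without wild-type replicate 2 (-0.026). Fbxo21 did not pass with DESeq2 (0.23). Leaving out each library in turn gave 0.25 to 0.47 for Fbxo32 and 0.17 to 0.29 for Fbxo21, each with calls lost, and kept the calls of Trim54 (-1.60 to -1.50), Fbxo40 (-1.38 to -1.18), Trim55 (-0.93 to -0.85), Trim63 (-0.34 to -0.21) and Fbxo31 (-0.26 to -0.18). Other values were -0.13 to -0.03 for Fbxo30, -0.026 to 0.037 for Nedd4, 5.07 to 5.23 for Fbxo2, and 7449 to 7888 genes called. Among list genes reported here, library totals alone turned Fbxo9 (0.017), Fbxl17 (0.054), Fbxo3 (0.14), Trim35 (0.076), Hecw2 (0.087), Cops5 (0.22), Ubr4 (0.056), Usp14 (0.030), Fbxo6 (0.29) and Sel1l (0.13) to above 0, and Nedd4l was at -0.031 without wild-type replicate 2. The causes of the other changes were not tested. Same-numbered libraries did not deviate together (correlations of 0.10, -0.09 and -0.21), and not every library correlated best with its own number. With 3 libraries per genotype this check gave no sign of pairing by number, and it is too small to exclude pairing. The fit with the replicate block called 8331 genes, against 8419, and moved no call among the 10 genes. Fbxo2 rests on 7 to 10 counts in wild-type libraries, which limits its ratio.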

Other observations

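The deubiquitinase genes, whose products take ubiquitin off again, held some of the larger differences outside the ligases. Of 14 tested, 4 rose and 6 fell (edgeR adjusted p of 0.05, median -0.11), and under plain library totals 8 were higher and 1 lower (median 0.28). With TMM that was 71.4%, beside 50.7% of all tested genes. Uchl1, known mainly from neurons, stood at 13.9 ± 0.991 CPM in the transgenic and 3.40 ± 0.413 CPM in those of wild type (SD, n = 3 each), a log2 fold change of 2.02 (SE 0.12, edgeR adjusted p = 2.46e-07), and shares 295 exonic bases with Uchl1os. Cyld, which removes linear and K63-type chains, rose (0.85, SE 0.07). Usp13 fell to 275 ± 19.5 CPM in the transgenic muscle, against 587 ± 30.2 CPM in the wild-type muscle (log2 fold change -1.09, SE 0.07, edgeR adjusted p = 4.99e-07). Uchl1, Cyld and Usp13 kept their direction and call under plain library totals.

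Genes of the degradation route for glycoproteins of the endoplasmic reticulum, in which Fbxo2 is known to act, went both ways. Of 18 tested, 6 rose and 6 fell (median 0.06), and under plain library totals 12 were higher and 1 lower (median 0.46). With TMM that was 66.7%, beside 50.7% of all tested genes. Derl1 (0.73, SE 0.05), Man1b1 (0.65, SE 0.07) and Os9 (0.61, SE 0.08) rose, and Herpud1 (-0.85, SE 0.07), a stress-induced part of the route, fell under both scalings. Vcp, the ATPase that pulls substrates out of the membrane, was lower with TMM (-0.40, SE 0.06) and at -0.01 under plain library totals.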
